A study of Mus musculus with 60 samples.

Results

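Mouse embryonic stem cell (ESC) clones that carry a translocation between the X chromosome and chromosome 8, t(X;8), were compared with a clone of the same cross that does not. The members are 14 of the 60 libraries of the series, all from undifferentiated female F1 ESCs (129/Sv-Cast/Ei) grown in 2i+LIF without doxycycline. The 12 translocated libraries came from 6 clones (85, 86, 109, 190, 203b and 339; 2 libraries each), and the reference is clone 87 with 2 libraries. Members were chosen by clone name from the labels, and the karyotypes (40,XX for clone 87 and 40,XX,t(X;8) for the others) were taken from the methods of the study, since the labels give only the chromosome of the transgene. Every clone held a doxycycline-inducible Xist transgene that was not induced here, together with the transactivator M2rtTA at the ROSA26 locus. In clone 87 the inducible promoter replaced the promoter of the endogenous Xist gene on the Cast X. In clones 85, 86, 109 and 190 the transgene lay on the Cast X, and in clones 203b and 339 on the 129 X;8 product. The study compared these lines to learn how Xist silences genes on the X, on an autosome and on a fused chromosome, and the untreated libraries used here show the starting dosage of that fused chromosome.

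An unbalanced translocation changes the number of copies of each gene beyond its breakpoints. In this product the end of the 129 X is lost and is replaced by an additional end of the Cast chromosome 8, so that cells have 3 copies of distal chromosome 8 and 1 copy of the distal X, where clone 87 has 2 of each. Both X chromosomes are active in female ESCs, so the loss of an end of the X is not masked by X inactivation. If RNA follows copy number, a 1.5-fold level (log2 0.58) is the yardstick for distal chromosome 8 and a 0.5-fold level (log2 -1) for the distal X. Dosage compensation would bring a gene nearer to a fold of 1, and genes elsewhere that move are said to change in trans. Reads that cover a base at which 129 and Cast differ can be assigned to their parental chromosome, which separates the gained Cast copy from the resident copies.

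All 6 translocated clones descend from a single t(X;8) line, and clone 87 is a single clone of another line, so effects of the karyotype and of the line cannot be told apart. Their libraries held between 3868762 and 8518122 whole-gene counts, and clone 87 held 13249904 (replicate 1) and 4784712 (replicate 2). Fold changes from sums per clone therefore rest more on replicate 1 of clone 87 than on replicate 2. The 2 clone 87 libraries differed from each other by more than any other replicate pair (chi-square per degree of freedom 34.1, against 1.72 to 12.4), and the labels do not say whether replicates were separate cultures. Of 6023 genes listed in all 14 libraries, 5973 with a mean of at least 20 counts were tested, among them 240 of the 391 distal chromosome 8 genes and 29 of the 64 distal X genes listed in any library used. The other 151 and 35 were missing from at least 1 of the 14 libraries, because the files list a gene only where enough allelic reads were seen. All 13 ESC identity markers were measured, with Pou5f1 at a median of 1870 scaled counts in the translocated libraries. Of 55 markers of feeder fibroblasts, neurons, endoderm, mesoderm and trophoblast, 36 were not listed in any library used, 15 were listed in some of them and 4 (Nefl, Lama1, Tfap2c and Tead4) were tested. Scaled counts are whole-gene counts as CPM, with the counts on the autosomes other than 8 and 12 as the library total.

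On chromosome 12, the data went against the plain 40,XX background given for both groups. The Cast share of allelic reads (Cast over Cast plus 129) changed at a place on chromosome 12 between Hif1a (73901324 to 73947554, GRCm38) and Ppp2r5e (75449463 to 75596237). This place was set as the split that best parted the Cast shares of clone 87, so the shares of clone 87 on either side are a description. Over the 121 tested genes up to Hif1a, the median Cast share was 0.5 and 0.51 in the 2 libraries of clone 87 and 0.655 to 0.678 in the 12 translocated libraries. Over the 132 genes from Ppp2r5e on, it was 0.747 in both libraries of clone 87 and 0.651 to 0.675 in the translocated libraries. Whole-gene counts followed, with a median fold of 1.49 (log2 0.57, higher for 119 of 121 genes) before that place and 0.743 (log2 -0.43, lower for 120 of 132 genes) after it. A median over the whole of chromosome 12 (log2 0.05) hides this step. Chromosome 12 was therefore kept out of the scaling and out of every count of genes changed in trans. What chromosome 12 contributes to the changes elsewhere was not tested.

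**Figure D1:**
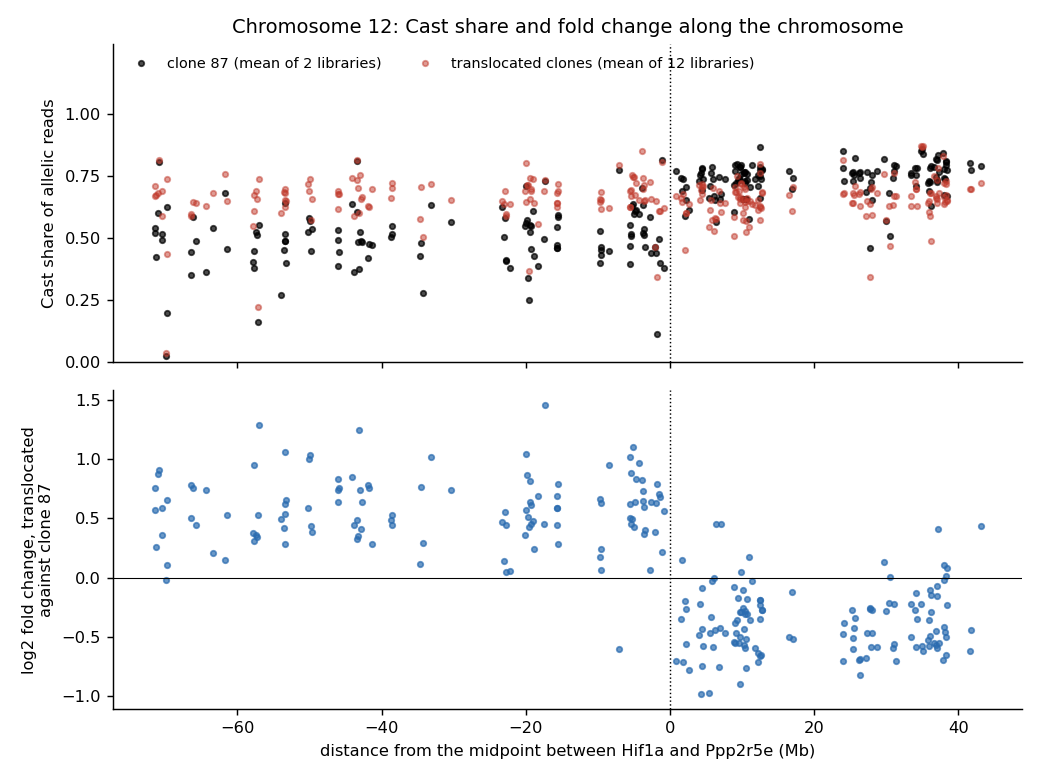
Each point is a tested gene of chromosome 12, placed by its distance (Mb) from the midpoint between Hif1a and Ppp2r5e. The split between these genes was set from the Cast share of clone 87. The upper panel shows the Cast share of allelic reads in clone 87 (black, mean of 2 libraries) and in the translocated clones (red, mean of 12 libraries), and the lower panel the log2 fold change of whole-gene counts. In clone 87 the share stepped from 0.5 and 0.51 to 0.747 at the midpoint, whereas the translocated libraries stayed between 0.651 and 0.678, and the fold change passed from above to below 0.

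The end of chromosome 8 was expressed near the level of its copy number. Summed over the 240 genes, its counts were 1.55-fold those of clone 87 (log2 0.63 ± 0.03, SD, n = 6 clones). Single clones ranged from 1.5-fold (clone 86) to 1.57-fold (clone 339), and the 12 libraries from log2 0.58 to 0.67. The 2 libraries of clone 87 lay at -0.02 and 0.02 around their mean, far below all translocated libraries. The 121 genes on the centromeric side of the border gave 0.985-fold (log2 -0.02 ± 0.05, SD, n = 6), with clones on both sides of 0. In bulk samples, more RNA per cell and a larger share of cells with that RNA cannot be told apart. With 6 clones against 1, an exact two-sided permutation test over clones cannot give less than p = 0.143, which is the value for distal chromosome 8. For proximal chromosome 8 the same exact permutation test gave p = 0.857.

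The end of the X was expressed near its copy number. Its 29 genes summed to 0.472-fold of clone 87 (log2 -1.08 ± 0.10, SD, n = 6 clones; exact permutation p = 0.143, the smallest possible). Clones 85, 86, 190, 203b and 339 lay between log2 -1.09 and -1.002, and clone 109 lay lower at -1.27. Clone 109 also had the highest ribosomal share of counts (16.4% in replicate 2, against 10.3% to 14.2% in the other libraries of both groups), and its part in these values was not tested. The 2 clone 87 libraries differed more here than on chromosome 8, at 0.14 and -0.14, and all 12 translocated libraries were between -1.34 and -0.93. The mean was -0.94 without replicate 1 of clone 87 and -1.23 without replicate 2, so it lay on either side of the copy-number value. The 157 genes of the proximal X summed to 0.996-fold (log2 -0.01 ± 0.09, SD, n = 6; exact permutation p = 1), with clone 109 lowest at -0.14 and clone 85 highest at 0.09.

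**Figure D2:**
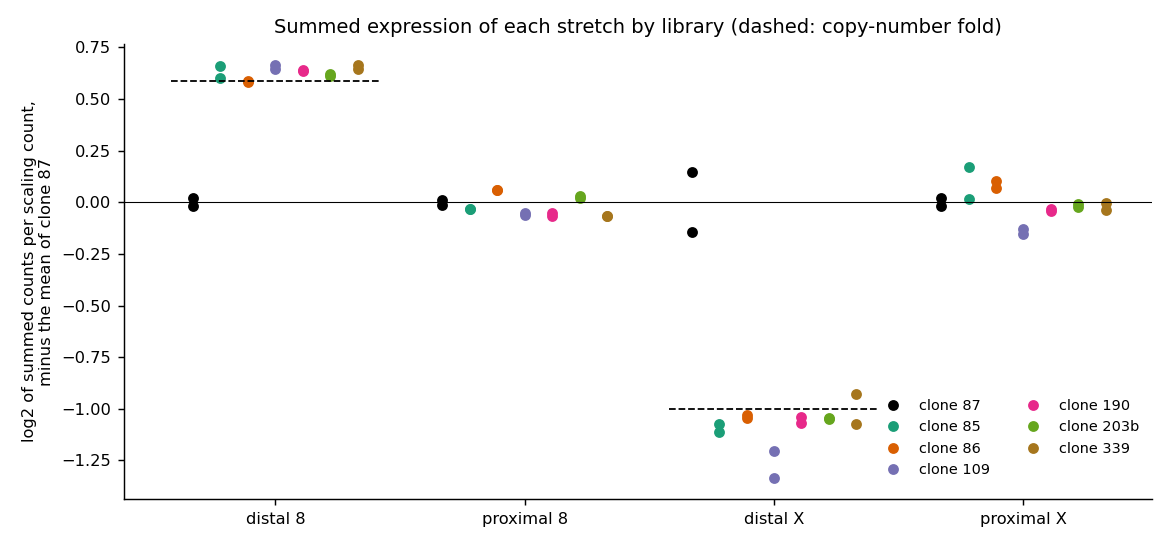
Each point is a library, coloured by clone, and the vertical axis is the log2 of the counts of a stretch per count on the autosomes other than 8 and 12, minus the mean of clone 87. Dashed lines mark the fold that copy number alone would give (0.58 for distal 8 and -1 for distal X). The translocated libraries sit at 0.58 to 0.67 for distal 8 and at -1.34 to -0.93 for distal X, and straddle 0 for both proximal stretches.

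The step was sharp on chromosome 8. The last tested genes before the border were Gatad2a, Mau2 and Sugp1, with log2 fold changes of -0.23 ± 0.15 (SE), -0.23 ± 0.18 and -0.20 ± 0.21. Gatad2a encodes a subunit of the NuRD chromatin complex and Mau2 a cohesin loader. The first 3 genes beyond it were Nr2c2ap (70131327 to 70133752 of chromosome 8, GRCm38) at 0.81 ± 0.24, Rfxank at 0.76 ± 0.21 and Tmem161a at 0.59 ± 0.38. Rfxank encodes a subunit of the RFX complex, which binds the promoters of MHC class II genes. Nr2c2ap lay between 69.9 and 112.6 scaled counts in the 12 translocated libraries and at 44.4 and 58.2 in clone 87, so that the groups did not overlap. Sugp1 (70042769 to 70072347), at 40.5 to 62.6 and at 57.5 and 57.7, did overlap. On the X the last gene before the border was Alg13 (144317966 to 144374450), a subunit of an enzyme of N-glycosylation, at -0.13 ± 0.16. The first beyond it were Maged2 (150806421 to 150814362) at -1.11 ± 0.16, Gnl3l at -0.82 ± 0.25 and Fgd1 at -1.21 ± 0.17. None of the genes named beside the border of chromosome 8 passed the test.

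**Figure D3:**
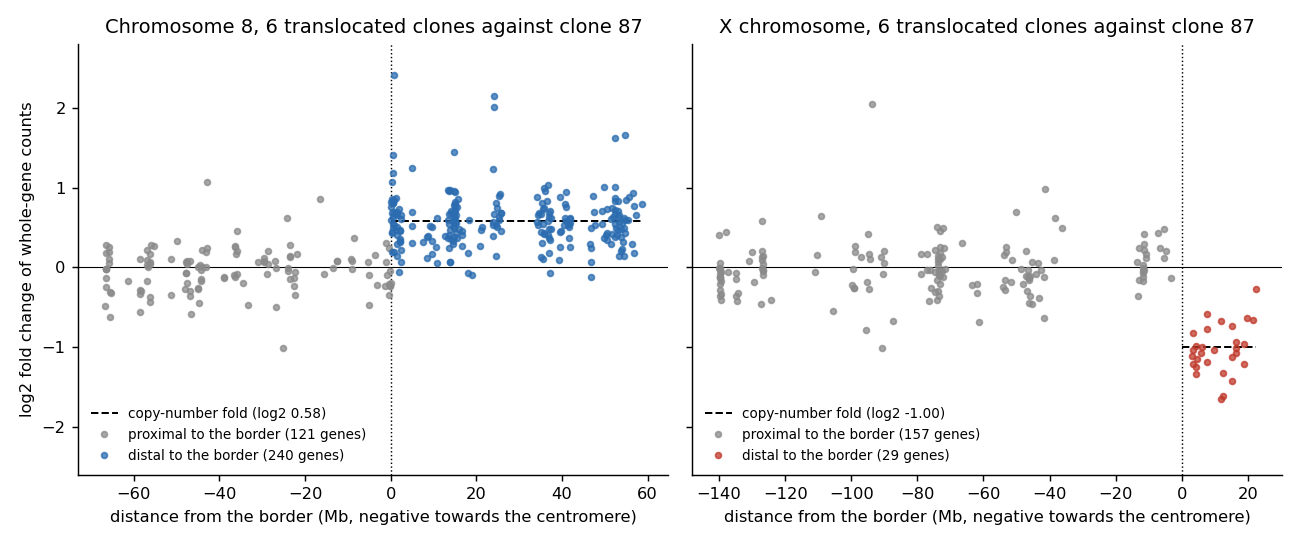
Each point is a tested gene of chromosome 8 (left) or of the X (right), with its distance from the border in Mb on the horizontal axis and its log2 fold change, translocated against clone 87, on the vertical axis. Grey points lie on the centromeric side, coloured points beyond the border, and the dashed line marks the copy-number fold. Beyond the border 235 of 240 chromosome 8 genes lay above 0 and all 29 X genes below it.

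Gene by gene, 235 of the 240 distal chromosome 8 genes had a fold change above 1, against 58 of 121 on the proximal part and 42.7% of the genes in trans. The median was log2 0.56 (1.47-fold), with quartiles of 0.39 and 0.72. It differed little along the stretch, from 0.52 within 10 Mb of the border to 0.59 in the last bin, between 50 and 60 Mb. It also differed little with level: with genes ranked by counts and parted into groups of 80, it was 0.55 for the lowest, 0.52 for the middle and 0.61 for the highest group. For comparison, the median of all tested genes was -0.03, and that of the 5172 genes in trans was -0.04.

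The edgeR quasi-likelihood test on sums per clone, with a single clone as the reference, called few of these genes. Of the 240 genes, 2 rose with an adjusted p under 0.05 (Mt1 and Mt2) and none fell, where 0.067% of all tested genes rose and 0.251% fell. At an unadjusted p under 0.05, 127 were higher and 0 were lower, where 5.56% of all tested genes were higher and 4.74% lower. With libraries as the unit (12 against 2), which treats libraries of a clone as independent, 98 were higher and 0 lower, against 3.77% and 2.08% of all tested genes. All 12 translocated libraries lay above both clone 87 libraries for 139 of the 240 genes, where 6.36% of all tested genes did so. Leaving out a library or a clone gave between 1 and 13 called genes, the highest number without clone 109.

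The confidence intervals showed how well single genes could be placed. For 121 of the 240 genes the 95% interval held the copy-number fold and not a fold of 1. For 102 it held both, and these genes could not be placed at this depth and number of clones. For 11 genes it held a fold of 1 and not 1.5, and for 6 it lay wholly above 1.5. No interval lay wholly between both folds or below 1. With libraries as the unit the 4 counts were 165, 40, 19 and 12, with 4 genes in between. As intervals of 95% were drawn for 240 genes, some would leave out the true value, and the lists of 11 and 6 are a description of the extremes.

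Allelic reads placed the gain on the Cast chromosome. As the border was set from the Cast share, this is a description. The median Cast share of distal chromosome 8 genes was 0.652 to 0.67 in the 12 translocated libraries and 0.488 and 0.493 in clone 87. Every gene but 1 of the 240 had a higher mean share than in clone 87. The exception was Bbs2, a component of the BBSome of cilia, at 0.629 against 0.66. Cast reads of 239 genes had a median log2 fold change of 1.00 (2.01-fold), with medians of single clones between 0.97 and 1.04. The 129 reads of 229 genes had a median of -0.02, with single clones between -0.05 and 0.02. The medians over all genes were -0.06 for Cast and -0.08 for 129 reads. In the test on sums per clone, 7 of 239 genes rose in Cast reads (0.135% of all genes with Cast reads rose) and 1 of 229 rose in 129 reads (0.0169% of all), with none lower. The single gene that rose in both was Mt2. The others in Cast reads included Mt1, the ribosomal protein gene Rpl13, Tomm20 of the mitochondrial import pore, Cdt1, which licenses replication origins, and Chmp1a of the ESCRT machinery. The level of the 129 chromosome 8 thus stayed close to that of clone 87, and Cast reads alone carried the gain.

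**Figure D4:**
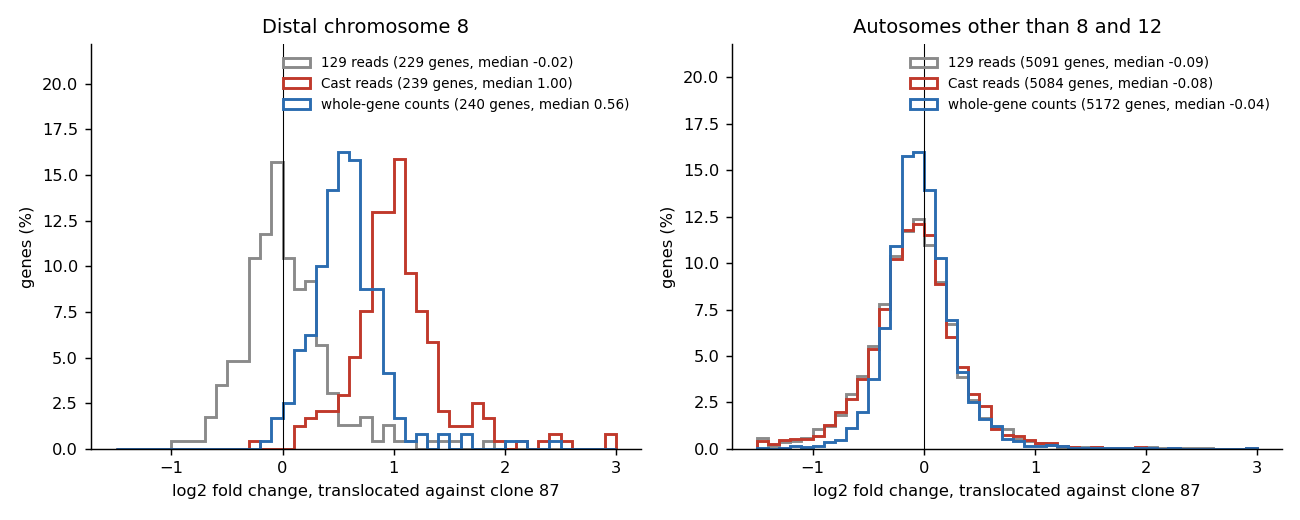
Histograms of the log2 fold change, translocated against clone 87, of 129 reads (grey), Cast reads (red) and whole-gene counts (blue), as a percentage of genes, for distal chromosome 8 (left) and the autosomes other than 8 and 12 (right). Values beyond the axis were placed in the end bins. On distal chromosome 8 the medians were -0.02, 1.00 and 0.56, while on the other autosomes the 3 distributions lay over each other with medians of -0.09, -0.08 and -0.04.

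The distal chromosome 8 genes that rose in the test were the metallothioneins, small cysteine-rich proteins that bind zinc and copper and are induced by metals. Mt2 had 287.1 and 455.8 scaled counts in clone 87 and a lowest, median and highest value of 1121, 1512 and 1793 in the translocated libraries. Its log2 fold change was 2.15 ± 0.22 (SE, edgeR quasi-likelihood adjusted p = 0.010), or 4.42-fold. Mt1 had 166.5 and 282.6 in clone 87 and 562.5, 821.3 and 1073 in the translocated libraries, with a log2 fold change of 2.01 ± 0.28 (edgeR adjusted p = 0.032). For both genes every translocated library lay above both reference libraries, and both 129 and Cast reads were higher: the log2 fold changes were 1.88 and 2.40 for Mt2 and 1.36 and 2.20 for Mt1. Of these, that of the 129 reads of Mt1 did not pass the test (edgeR adjusted p = 0.147). Of 20 fits that each left out a library or a clone, Mt2 was called in all 20 and Mt1 in 14.

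The clones 228, 273 and 38, which carry the transgene on chromosome 12 and have the karyotype 41,XX,dup12 in the description of the study, were used as further references. Their summed counts were 1.21 to 1.37 times those of clone 87 on proximal chromosome 8 as well as 1.47 to 1.63 times on its distal part, so they are no diploid reference for it, and their distal X stood at 0.662 to 0.998 of clone 87. Mt2 stood at 843.7, 710.1 and 1468 in these 3 clones and Mt1 at 665.3, 456.8 and 832.1, above clone 87 in each case. With clone 38 in place of clone 87, the log2 fold change was -0.08 ± 0.19 for Mt2 and -0.14 ± 0.23 for Mt1. Against clones 87, 228, 273 and 38 together it was 0.79 ± 0.31 for Mt2 and 0.55 ± 0.31 for Mt1, and neither passed the test. As 3 of these clones are no diploid reference for distal chromosome 8, these values cannot show what the calls rest on.

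The metallothionein genes are neighbours on the plus strand, and their promoters are shown because they are the only distal chromosome 8 genes called. The RefSeq windows of 300 bases (250 before and 50 after the start, GRCm38.p6) were searched on both strands for the core of the metal response element, TGCACNC or TGCGCNC, and capitals mark each match. The Mt1 window is chr8:94178839-94179138 and the Mt2 window is chr8:94172368-94172667. The Mt1 window was set on another start than that of its gene record (94178883), which lies inside the window.
Mt1: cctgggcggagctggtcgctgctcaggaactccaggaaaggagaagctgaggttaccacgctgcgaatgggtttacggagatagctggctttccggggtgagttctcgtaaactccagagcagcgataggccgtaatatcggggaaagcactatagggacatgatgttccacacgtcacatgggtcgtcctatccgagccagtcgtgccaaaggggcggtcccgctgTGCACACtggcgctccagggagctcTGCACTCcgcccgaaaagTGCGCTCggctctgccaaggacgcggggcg
Mt2: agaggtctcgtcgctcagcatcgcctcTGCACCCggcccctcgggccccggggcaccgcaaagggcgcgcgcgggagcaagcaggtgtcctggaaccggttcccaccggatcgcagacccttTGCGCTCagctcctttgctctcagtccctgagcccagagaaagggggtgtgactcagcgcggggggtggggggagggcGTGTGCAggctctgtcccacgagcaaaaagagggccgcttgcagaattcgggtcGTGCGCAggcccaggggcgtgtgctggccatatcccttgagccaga
The Mt1 window held 3 matches and the Mt2 window 4. At least 1 match was found in 25.7% of the 32851 promoter windows of the reference, at least 2 in 7.11% and at least 4 in 0.517%. A match is a string of letters and does not show that the site was bound.

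The other genes with intervals wholly above the copy-number fold did not pass the adjusted threshold, and 3 of them are described here. Jund, a subunit of the AP-1 transcription factor, had 135.8 and 176.5 scaled counts in clone 87 and 257.6, 410.6 and 517.8 (lowest, median, highest) in the translocated libraries (log2 1.41 ± 0.29, edgeR adjusted p = 0.139). Hmox1, the haem oxygenase induced by oxidative stress, had 72.9 and 83.2 against 156.9, 167.8 and 247 (1.25 ± 0.24, edgeR adjusted p = 0.105). Syce2, part of the central element of the synaptonemal complex of meiosis, had 43.2 and 52 against 97.8, 115.2 and 212.8 (1.45 ± 0.33, edgeR adjusted p = 0.153). In all 3 genes the groups did not overlap. Clones 228, 273 and 38 are no diploid reference for distal chromosome 8, so the 1.5-fold yardstick does not hold against them. Against clones 87, 228, 273 and 38 together the log2 fold change was 0.44 ± 0.27 for Jund, 0.21 ± 0.24 for Hmox1 and -0.31 ± 0.41 for Syce2. Hmox1 was at -0.29 ± 0.21 against clone 228 and Jund at -0.30 ± 0.25 against clone 38, and Syce2 was lower than in clone 228 (-1.24 ± 0.26, edgeR adjusted p = 0.042). The largest fitted value of the stretch belonged to Ifi30, a thiol reductase of lysosomes, at 2.41 ± 1.02 (edgeR adjusted p = 0.470). Its level spread from 44.2 in clone 109 to 256.4 in clone 85, so its size rests on which clones are taken. Clone 85 was also the highest clone for Egln1, the oxygen sensor that marks HIF for degradation (1.66 ± 0.62), and for Cyba, a subunit of the phagocyte oxidase (1.62 ± 0.68), and neither gene passed the test.

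At the other end lay genes with fold changes near 1. The 8 smallest fold changes among genes with at least 100 counts were those of Gcsh (log2 -0.12 ± 0.23), Sall1 (-0.09 ± 0.40), Heatr3 (-0.07 ± 0.43), Nfat5 (-0.07 ± 0.36), Zfp961 (-0.06 ± 0.36), Usp38 (0.06 ± 0.21), Lphn1 (0.06 ± 0.22) and Samd1 (0.06 ± 0.20). Gcsh encodes the H protein of the glycine cleavage system, Sall1 a zinc-finger repressor, Nfat5 a factor of the response to osmotic stress and Usp38 a deubiquitinase. For Gcsh, Usp38, Lphn1 and Samd1 the interval held a fold of 1 and not 1.5, and for the other 4 it held both. Gcsh had 194.2 and 241.1 scaled counts in clone 87 and 158.5 to 269.5 in the translocated libraries, and the groups overlapped for each of these 8 genes. Its Cast reads had a log2 fold change of 0.45 and its 129 reads of -0.81. In Usp38 these were 0.13 and -0.79, in Lphn1 0.31 and -0.59, and in Samd1 0.30 and -0.50. The Cast values were positive and the 129 values negative in all 4, and none passed the test. These genes were chosen as the lowest in whole-gene counts, of which allelic reads are a part. Ctcf, the insulator protein, was also among the 11 genes with an interval that held 1 and not 1.5 (0.10 ± 0.19).

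Members of complexes with subunits on distal chromosome 8 give a view of unequal dosage. Of 28 tested genes of replication licensing and the fork, 4 lie on distal chromosome 8: Cdt1 (log2 0.72 ± 0.16), Orc6 (0.56 ± 0.19), Mcm5 (0.52 ± 0.14) and Gins2 (0.43 ± 0.17). All 4 were above clone 87 in all 12 libraries, as were 139 of the 240 distal chromosome 8 genes and 6.36% of all tested genes. The 23 members in trans had a median of 0.05, with Mcm2, Mcm3, Mcm4, Mcm6 and Mcm7, the partners of Mcm5 in the replicative helicase, between 0.06 and 0.15. None of the 28 passed the test on sums per clone. With libraries as the unit 3 passed (Cdt1, Orc6 and Mcm5), as did 98 of the 240 distal chromosome 8 genes. The ribosomal protein gene Rpl13 was at 0.83, against a median of 0.19 for the 58 ribosomal protein genes in trans. Cox4i1 of cytochrome c oxidase was at 0.73 against 0.04 for its 16 partners in trans. Psmd7 of the proteasome was at 0.48 against -0.02 for 30. Cdh1 (E-cadherin) and Itgb1 (integrin beta 1) were at 0.83 and 0.79, and 7 members of their list in trans had a median of -0.14.

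On the distal X, all 29 tested genes had a fold change under 1, with a median of log2 -1.04 (0.487-fold) and quartiles of -1.21 and -0.82. The test on sums per clone called 14 of the 29, all lower, where 0.251% of all tested genes fell. Another 11 passed with libraries as the unit, which called 25 in all (2.08% of all tested genes), and 26 were lower at an unadjusted p under 0.05 (4.74% of all). All 12 translocated libraries lay below both clone 87 libraries for 25 of 29 genes, where 5.19% of all tested genes did so. The interval held the copy-number fold and not a fold of 1 for 22 genes, both for 3, neither but a larger fall for 3, and a value in between for 1.

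The 129 allele of the distal X was almost absent from the reads. As the border was set from the Cast share, the 129 values here are a description and no check of the karyotype. Over the 29 genes, 49.2% and 49.6% of allelic reads were from 129 in clone 87, and 1.16% to 3.66% in the translocated libraries. Most of these belonged to G530011O06Rik, the last tested gene of the stretch, which had 24 to 87 reads of 129 and 43 to 205 reads of Cast in each translocated library. Without it, the 129 share was 0.0991% to 0.484%, or 3 to 12 reads a library. G530011O06Rik was also the gene with the smallest fold change (-0.27 ± 0.79), and its libraries spread from 5.74 to 45.2 scaled counts. Its mean Cast share was 0.662 in the translocated libraries and 0.74 in clone 87, so its 129 reads were not lost. In the study's list of clones, the approximate transgene site of clone 190 overlaps this gene. The part of that site in these values was not tested. In the test on sums per clone, 21 of 22 genes with enough 129 reads fell, where 0.423% of all such genes fell, and the exception was G530011O06Rik. Gnl3l had 1 to 7 reads of 129 in each translocated library, and no gene besides it and G530011O06Rik had more than 2.

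The Cast copy that remains was read at about its former level. Cast reads of the 29 genes had a median log2 fold change of -0.19, with quartiles of -0.36 and 0.13 and with 10 genes above 0. The median for all genes was -0.06. No gene of the 29 passed the test in either direction, and at an unadjusted p under 0.05 1 was higher and 0 lower. Single clones ranged from -0.34 (clone 109) to 0.07 (clone 86). The authors counted a polymorphic base only where it had enough reads, so a gene with fewer reads can lose bases from its sum, and the part of this in the Cast values was not tested.

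By role, the genes of chromatin, transcription and RNA processing on the distal X had a median of -1.05 (10 genes tested, 6 called lower). Over all 29 distal X genes the median was -1.04 and 14 were called lower, and a difference between roles was not tested. Kdm5c, a demethylase of histone H3 that escapes X inactivation in somatic cells, had 492.5 and 350.4 scaled counts in the 2 libraries of clone 87 and 140.1, 202.5 and 265.7 (lowest, median, highest) in the translocated libraries. It fell by 1.15 on the log2 scale (SE 0.17, edgeR adjusted p = 0.033). Smc1a, a core subunit of cohesin, had 636.6 and 541.5 against 272.4, 301.3 and 356.1, and fell by 0.99 (SE 0.14, edgeR adjusted p = 0.032). Zrsr2, a factor of the minor spliceosome, fell by 1.07. Huwe1, a large ubiquitin ligase, had a log2 fold change of -1.33 ± 0.22 (edgeR adjusted p = 0.051), but its clone 87 libraries differed widely, at 2126 and 930, and the lower value lay within the translocated range of 360.1 to 956.8. Eif1ax, a translation initiation factor, had the single interval that lay between both folds, at -0.67 ± 0.14.

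The genes of metabolism and mitochondria had a median of -0.77 (9 tested, 3 called lower), beside -1.04 and 14 called for all 29 distal X genes. Pdha1, the catalytic subunit of pyruvate dehydrogenase, had 1024 and 1004 scaled counts in clone 87 and 293.9, 331.5 and 366.6 (lowest, median, highest) in the translocated libraries. It fell by 1.62 on the log2 scale (SE 0.13, edgeR adjusted p = 0.004), to 0.326-fold, and its interval lay wholly under 0.5. It was called in all 20 fits that left out a library or a clone, whereas the number of called distal X genes in these fits ranged from 1 (without clone 203b) to 19 (without clone 109). Hsd17b10, a mitochondrial dehydrogenase that is also part of ribonuclease P, fell by 1.25, and Acot9, a mitochondrial thioesterase, fell by 1.19. Prdx4, a peroxiredoxin of the endoplasmic reticulum, and Prps2, which makes phosphoribosyl pyrophosphate, had the smallest differences of this list, at -0.58 ± 0.26 and -0.63 ± 0.33, and neither passed the test. The genes of signalling and trafficking had a median of -1.21 (7 tested, 4 called lower), among them Map3k15, a stress kinase of the MAPK cascade (fell by 1.32), Rab9, a GTPase of endosome-to-Golgi transport (fell by 1.21), Fgd1, an exchange factor for Cdc42 (fell by 1.21), and Txlng (fell by 1.42). Their adjusted p-values in the edgeR test were between 0.010 and 0.046.

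**Figure D5:**
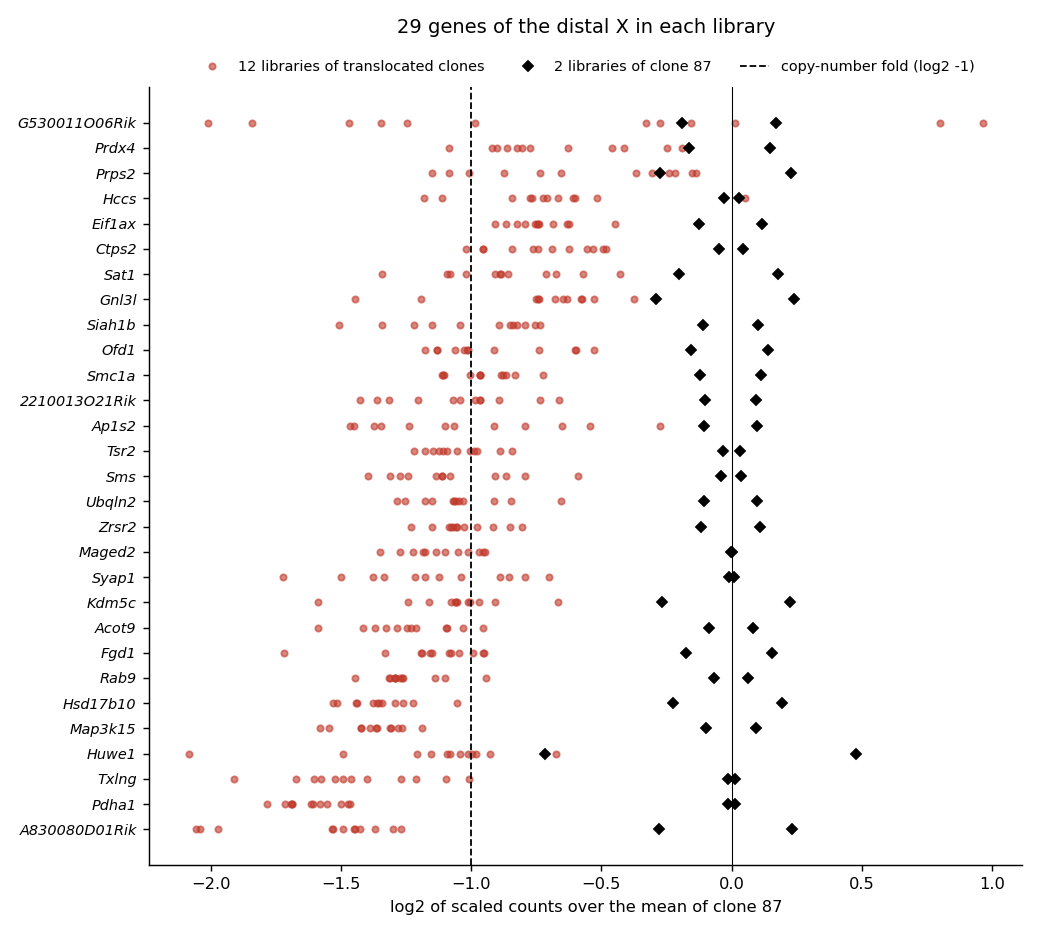
Each row is a tested gene of the distal X, ordered by fold change. Red circles are the 12 translocated libraries and black diamonds the 2 libraries of clone 87, as log2 of scaled counts over the mean of clone 87, and the dashed line marks a fold of 0.5. In 25 of the 29 rows the circles and diamonds do not overlap, and the exceptions are G530011O06Rik, Prps2, Hccs and Huwe1.

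Single values of the distal X differed with clones 228, 273 and 38 as the reference. Pdha1 stood at 596.1, 754.2 and 587 in them, below the 1014 of clone 87, and with these clones in place of clone 87 its log2 fold change was -0.83 ± 0.14, -1.19 ± 0.14 and -0.78 ± 0.14. Against all 4 clones together it was -1.14 ± 0.16. Eif1ax moved the other way, from -0.67 against clone 87 to -0.998 ± 0.13 against the 4 clones, and Prdx4 from -0.58 to -1.30 ± 0.23. A830080D01Rik, which had the largest difference against clone 87 (-1.65 ± 0.22), was at -0.31 ± 0.24 against clone 273. With the 4 clones as the reference, 26 genes could be tested, all were lower and the median was -0.93. The summed level over the 29 genes was 0.876 and 0.909 of clone 87 in the libraries of clone 228, 0.995 and 0.933 in those of clone 273, and 0.998 and 0.662 in those of clone 38, so that the second library of clone 38 stood apart. For 22 of the 29 genes each of the 6 translocated clones had a lower mean than each of the 4 clones with an intact X.

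The 35 distal X genes outside the test were missing more often from the translocated libraries, since listing needs allelic reads. Of the 49 distal X genes listed in both libraries of clone 87, 29 (59.2%) were listed in all 12 translocated libraries, against 73% of 215 genes on the proximal X and 77% of 6777 in trans. Egfl6, with a median of 122.5 counts in clone 87, was listed in both of its libraries and in none of the 12. Phf8, a histone demethylase, had a median of 558.5 counts in clone 87 and 171.5 in the 6 translocated libraries that list it, and Mbtps2, a protease that activates SREBP, 892.5 and 241 (11 libraries). These are counts before scaling and give no fold change. Clone 87 held 13249904 and 4784712 whole-gene counts, and the translocated libraries 3868762 to 8518122. The translocated medians also leave out the libraries that do not list the gene. The 3 genes were named after their values were seen.

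Changes in trans were few in the test and uneven among clones. Of 5172 genes on autosomes other than 8 and 12, 1 rose and 1 fell in the edgeR test on sums per clone, where 0.067% of all tested genes rose and 0.251% fell. At an unadjusted p under 0.05, 135 were higher and 187 lower, where 5.56% of all tested genes were higher and 4.74% lower. Epcam, an adhesion molecule of epithelia and ESCs, had 29.6 and 34 scaled counts in clone 87 and 62.7, 77.5 and 97.9 (lowest, median, highest) in the translocated libraries (log2 1.33 ± 0.20, edgeR adjusted p = 0.033). Thumpd3, an RNA methyltransferase, had 252 and 254.3 against 89.6, 115.8 and 124.4 and fell by 1.15 on the log2 scale (SE 0.16, edgeR adjusted p = 0.032). Both calls changed with the reference. Epcam stood at 96.7, 79.3 and 157.3 in clones 228, 273 and 38. Its log2 fold change was -0.23 ± 0.31 against the 4 clones together, and it was lower than in clone 38 (-1.05 ± 0.17, edgeR adjusted p = 0.038). Thumpd3 stood at 142.1, 234.4 and 159.4. It was also called against clone 273 (-1.04 ± 0.16, edgeR adjusted p = 0.048), but not against clones 228 or 38 or against the 4 clones together (-0.80 ± 0.17, edgeR adjusted p = 0.074). Epcam was called in 11 and Thumpd3 in 15 of the 20 fits that left out a library or a clone. These fits gave between 0 and 10 called genes in trans, the highest number without clone 109. With libraries as the unit, 68 genes were higher and 64 lower in trans, where 3.77% of all tested genes were higher and 2.08% lower. In 119 of those 132 the 12 libraries lay on one side of both clone 87 libraries, 64 above and 55 below. Genes called in this way tend not to overlap, and of all 5172 genes in trans 169 lay above (3.27%) and 221 below (4.27%).

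These 119 genes are described as the wider set, with libraries of a clone counted as independent. The names that follow were picked after their values were seen. Stra8, which starts meiosis, had 11.1 and 11.9 scaled counts in clone 87 and 21.6 to 280.9 in the translocated libraries. Dppa3 (Stella) had 13.6 and 19.1 against 33.1 to 90.1, and Dmrt1 had 25.8 and 26.8 against 44.9 to 174.9. Stra8 was lowest in clone 109 (28.5) and highest in clone 85 (260.1), and the same clones were at the ends for Dppa3 (36.7 and 88.4) and for Dmrt1 (50.5 and 152.3). Clones 228 and 273 also stood above the 11.5 of clone 87 for Stra8 (69.9 and 54.9), and clones 228, 273 and 38 above its 16.4 for Dppa3 (44.1, 54.1 and 21.1) and its 26.3 for Dmrt1 (47.8, 42.6 and 59.5). Clone 85 was the highest of the 6 clones for 33 of the 64 genes above clone 87, and clone 109 the lowest for 30 of them. Among the 55 genes below clone 87, clone 85 was the lowest for 32, and clones 86 and 109 were the highest for 18 and 15. How often each clone lay at an end over all genes in trans was not counted. Phgdh, the first enzyme of serine synthesis, had 233.1 and 268.5 against 395.8 to 640.3. None of these 4 passed the test on sums per clone (edgeR adjusted p from 0.153 to 0.340).

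Gene lists in trans held no gene that passed the test on sums per clone. The 16 tested glycolysis genes had a median log2 fold change of 0.70, against -0.04 for all genes in trans, and 6 of them lay above clone 87 in all 12 libraries, where 169 of 5172 genes in trans (3.27%) did so. None passed the test on sums per clone, and 2 (Gapdh and Pfkp) were higher with libraries as the unit, as were 68 of the 5172. Ldha, lactate dehydrogenase A, was at 537.3 in clone 87, between 691.6 (clone 203b) and 2556 (clone 85) in the translocated clones, and at 5203, 3730 and 691.9 in clones 228, 273 and 38. The unfolded protein and integrated stress response list had 18 genes in trans with a median of 0.37, of which 3 were higher (Phgdh, Shmt2 and Nupr1) and 2 lower (Hspa5 and Pdia4) with libraries as the unit. Hspa5 and Pdia4 are chaperones of the endoplasmic reticulum, whereas Phgdh and Shmt2 are targets of ATF4. Naive pluripotency genes in trans (14 tested) had a median of -0.35, from Tet2 at -0.71 ± 0.33 to Dppa3 at 1.95 ± 0.54, and the core factors Pou5f1, Sox2 and Nanog were at -0.16 ± 0.15, -0.15 ± 0.18 and -0.35 ± 0.38. The 13 ESC identity markers, which are not all in trans, had a median of -0.38. Their summed level was 10540 to 13324 scaled counts in the translocated libraries, below the 14009 and 16741 of clone 87. For the 11 markers in trans the median was -0.35. Their sums were 9517 to 11620 in the translocated libraries and 11616 and 14553 in clone 87, so the groups overlapped. The part of these marker levels in the changes in trans was not tested. The 19 p53 targets in trans had a median of 0.26, with Cdkn1a at 1.12 ± 0.62. Heat shock genes and chaperones (20 tested in trans) had a median of -0.00074, and proteasome subunits in trans -0.02.

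Xist and Tsix could not be tested, as they were not listed in every library. Xist, the RNA that coats the inactive X, was listed in 10 of the 14 libraries, at 70.2 scaled counts in replicate 1 of clone 87 and between 31.2 (clone 339) and 155.9 (clone 190) in 9 translocated libraries. Tsix, its antisense, was listed in 8, at 47.1 in clone 87 and 31 to 85.9 in 7 translocated libraries. The genes overlap on opposite strands, so their reads cannot be told apart where counting did not use strand.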

How the data were processed

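RNA-seq libraries (TruSeq, Illumina) were aligned by the authors to 129/Sv and Cast/Ei genomes built from mm10, and TopHat2 2.0.6, SAMtools and HTSeq 0.6.1 are named in the submitters' processing notes. The deposited whole-gene counts per library were used as counts, together with the deposited 129 and Cast read counts, in which the authors kept polymorphic bases and genes above a minimum of reads. The Cast share is the deposited fraction, which the authors computed as Cast reads over all allele-specific reads of a gene. A gene that is not listed was treated as missing, not as 0. Libraries were grouped by the clone in their labels. The 2 libraries of each clone were summed and 6 clones were tested against 1 with the edgeR 4.0.16 quasi-likelihood test (R 4.3.3, Benjamini-Hochberg over 5973 genes), with counts on autosomes other than 8 and 12 as library size and a mean of at least 20 counts (10 for allelic reads). Since the reference is a single clone, the spread is that among the translocated clones, and clone 87 is assumed to vary like them. A sum weights the deeper library. On autosomes other than 8 and 12, replicate 1 of clone 87 held 10118420 counts and replicate 2 held 3881514. Intervals are at 95% (0.95). For stretch sums, clone labels were permuted in every possible way (exact permutation test, two-sided). The borders were taken from the step in the Cast share along chromosomes 8 and X, so that this share there is a description. The split on chromosome 12 was taken from the Cast share of clone 87 alone, so that its share there is a description too. Alternatives were TMM and DESeq2 1.42.0 size factors, the DESeq2 Wald test, limma 3.58.1, other count minimums, libraries as the unit, a replicate block, other reference clones and leaving out each library and clone. The scripts were tested on simulated data. Members, lists and tests were chosen with earlier results of these data known. Names were drawn from the distal X genes, the genes called in trans (at most 10 in each direction) and the 3 genes nearest each border on either side. The 8 largest and 8 smallest distal chromosome 8 fold changes with a mean of at least 100 counts were named, as were Xist, Tsix and list members. Not every gene that these rules allow is named in the text. Other names were chosen after their values were seen, and not all of them are marked so. Promoter sequences are from RefSeq. Some items are not reported here.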

Additional observations from a re-analysis of the deposited data

Results flagged for a closer look

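Of 24 groups of 6 clones examined, 3 held a clone whose gap to its nearest neighbour was above Dixon's 95% critical value as a share of the range of the group, where chance flags about 1 in 20 groups. The summed distal X dosage of clone 109 was log2 -1.27, below the -1.09 to -1.002 of the other 5 clones. Thumpd3 stood at 94.7 scaled counts in clone 85 and at 113 to 123 in the others. Ubqln2, a ubiquitin-like shuttle of the proteasome on the distal X, stood at 95.4 scaled counts in clone 86 and at 72.8 to 77 in the others.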

How the results depend on the processing

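The direction of the distal X difference held under every alternative run, and that of distal chromosome 8 under all but 1, with clone 38 as the reference. Clones 228, 273 and 38 are no diploid reference for distal chromosome 8. Their libraries stood at 1.47 to 1.63 times clone 87 there, with median Cast shares of 0.651 to 0.675. With clones 87, 228, 273 and 38 as the reference the distal X dosage was -0.95. The exact permutation test over clones gave p = 0.00476, the smallest possible here, and it treats clones of the same line as independent. In that run proximal chromosome 8 was at -0.29 and the gene medians at 0.17 (distal 8) and -0.93 (distal X). It called 1 gene on distal 8 and 4 in trans. With clone 38 alone the distal 8 dosage was -0.0291, proximal X 0.26, the medians 0.0189 and -0.78, and the calls 1 (distal 8), 7 (distal X) and 44 (trans). With clone 228 the medians were 0.16 and -0.83, with 11 calls on distal 8 and 148 in trans, and with clone 273 they were 0.10 and -0.89, with 0 and 7 calls on distal 8 and distal X. Adding clone 267 gave a proximal X dosage of 0.0040, 6 calls on distal 8 and 4 in trans. The distal 8 median was 0.61 with TMM and 0.60 with DESeq2 size factors. The DESeq2 Wald test called 47 genes on distal 8 and 49 in trans, limma called 1, 3 (distal X) and 0, and libraries as the unit gave 98, 25 and 132. The median of 129 reads of distal 8 was 0.0387 against the 4 clones and 0.0701 with TMM, and that of Cast reads of the distal X was 0.0105 against the 4 clones. The cause of these shifts was not tested.

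Leaving out a library or clone gave dosages of 0.61 to 0.65 (distal 8), -1.23 to -0.94 (distal X), -0.0380 to -0.0090 (proximal 8) and -0.0277 to 0.0187 (proximal X, above 0 without replicate 1 of clone 87 or of clone 85, at 0.0136 and 0.0072, or without clone 109). Medians were 0.54 to 0.58 and -1.07 to -0.96, and those of allelic reads -0.0392 to 0.0572 (129, distal 8) and -0.26 to -0.0257 (Cast, distal X). Calls ranged from 1 to 13 (distal 8), from 1 to 19 (distal X) and from 0 to 10 (trans). They were 13, 19 and 10 without clone 109, and 1 on the distal X without clone 203b, 2 without clone 86 or 339, 3 without clone 190 and 4 without clone 85. Without a single library they were 7 (replicate 1 of clone 87) and 5 (replicate 1 of clone 109) on the distal X, and 6 on distal 8 and in trans without replicate 2 of clone 87.

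Replicate numbers were not taken to pair the libraries, since not every pair of clones correlated above 0.1. The replicate 1 minus 2 differences of 21 pairs of clones correlated over genes between -0.26 and 0.72 (median 0.04), 10 of them above 0.1. With a replicate block, libraries as the unit gave 91 (distal 8), 25 (distal X) and 116 (trans) calls.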

Other observations

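Clone 267, a further t(X;8) clone that also carries a Tsix stop allele and was not among the 6, had distal chromosome 8 counts at 1.49 and 1.48 times those of clone 87 in its 2 libraries and distal X counts at 0.5 and 0.518 times. Xist stood at 297.2 and 281.1 scaled counts in these libraries, above the 31.2 to 155.9 of the 9 translocated libraries that list it.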
